A study of Daphnia magna with 12 samples.

Results

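Old Daphnia magna females that had stopped reproducing were compared with females of the same age range that still reproduced. Daphnia magna is a small freshwater crustacean. The comparison takes 8 of the 12 RNA sequencing libraries of the study. Of these, 4 come from old non-reproducing females aged 130 to 170 days and 4 from old reproducing females aged 130 to 170 days. The remaining 4 libraries, from young reproducing females aged 20 days, enter as a shared estimate of the spread and as a further level to read beside the old ones. Members were chosen by the group named in each sample title, and every gene model that passed a filter on low counts was tested. That filter kept 10987 of 21456 gene models.

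All 12 libraries come from 1 clone, GB-EL75-69, so the groups share a genotype. Females were kept singly in 20 mL of medium at 20 °C and were fed 100000 cells of the green alga Scenedesmus acutus per mL per day. No treatment besides age is labelled, and the material is labelled as somatic whole body. The labels do not say whether a library holds 1 animal or a pool, nor how old each female was within the range, nor how long ago a non-reproducing female had laid. If the libraries of a group are not separate animals, the p-values below measure only the spread between these libraries. Library numbers run in blocks, 27 to 30 for old non-reproducing and 23 to 26 for old reproducing females, so an effect of library order and of reproductive state cannot be told apart.

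Daphnia females reproduce clonally for most of their adult life. They keep moulting as adults, and each clutch of eggs is laid into a brood chamber on the back around a moult. Yolk for the eggs is built from lipids and from vitellogenin, a large yolk protein that in Daphnia is made in the fat body and carried to the ovary. A female that has stopped laying therefore differs from a laying one in a process that draws on lipid and protein metabolism. The gene models here carry only annotation IDs. The files do not pair IDs with names, and 0 of 21456 IDs were found among the 28335 genes of the RefSeq table used here, so no gene is named, no role is given, and reproductive state could not be checked against yolk protein genes. The ID gives the contig and, after the word gene, a whole number that in IDs of this form counts successive stretches along the contig. IDs are printed for 2 genes in each direction and other genes described singly are given by rank, contig and length.

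Total counts lay between 17539749 and 23324131 in old non-reproducing libraries and between 16015869 and 25260519 in old reproducing libraries. Single libraries stood apart in a way that touches the results below. Old non-reproducing replicate 1 was more like the old reproducing libraries, with a mean Pearson r of 0.964 to them across 10987 genes, than like its own group, with a mean r of 0.921. Its closest old library was old reproducing replicate 2 (r = 0.982). Nothing in the labels puts it in another group, so the deposited label was kept throughout, and the counts of calls are given with and without it. The other 3 old non-reproducing libraries correlated at 0.950 to 0.966 with each other. Replicate 2 also had its closest old library in the other group, old reproducing replicate 4 (r = 0.953), by a small margin. Its mean r was 0.937 to its own group and 0.916 to the old reproducing libraries. Nearly midway lay old reproducing replicate 4, with a mean r of 0.946 to old non-reproducing and 0.950 to its own group. These are correlations across genes, which are not independent, and they are given as a description.

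The first principal component of the 8 old libraries carried 50.4% of the variance in log2 CPM (counts scaled to the normalised library total). Old non-reproducing replicates 2, 3 and 4 scored 69.5, 68.5 and 53.5 on it, and replicate 1 scored -38.3. Old reproducing replicates 1, 2 and 3 scored -49.7, -58.3 and -54.3, and replicate 4 scored 9.06. The groups thus overlapped on the main axis of variation, with 1 library of each group away from its fellows.

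**Figure D1:**
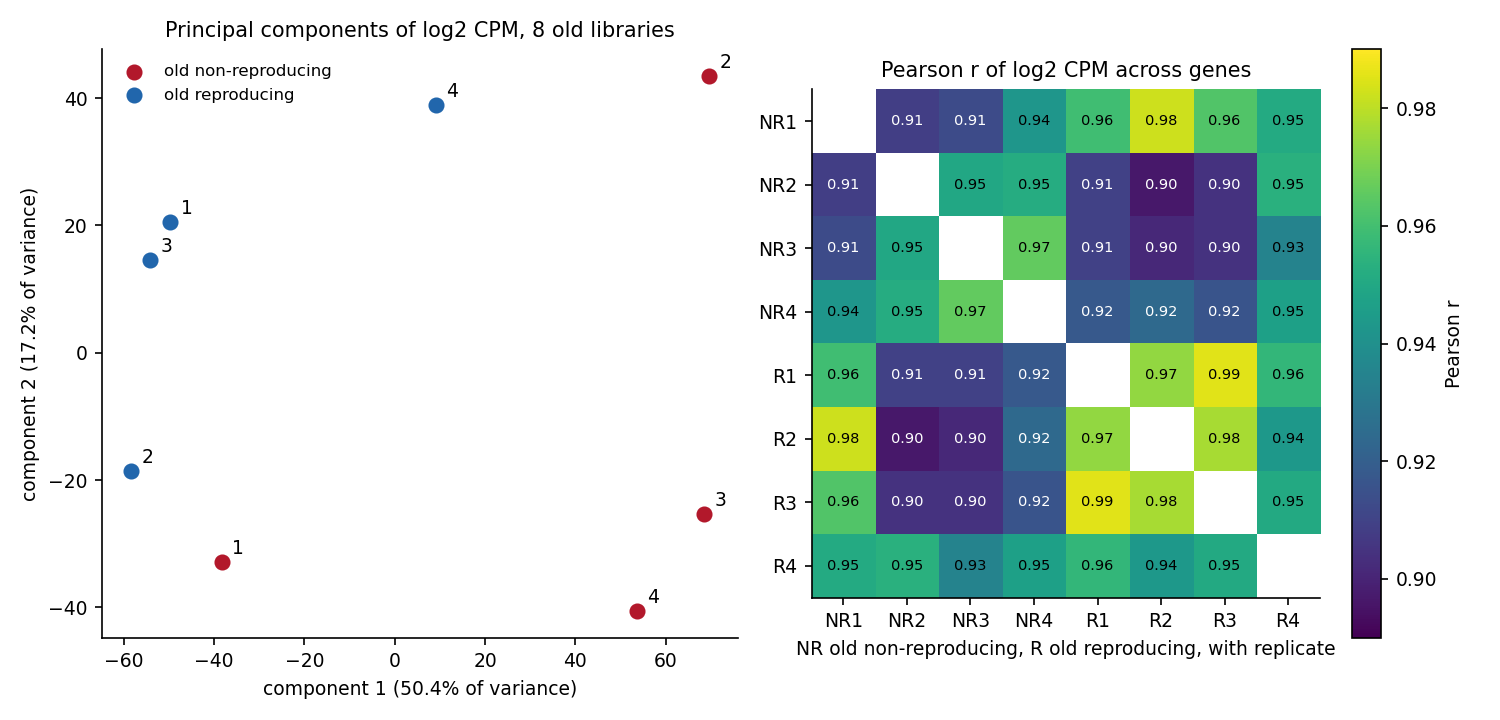
Left, scores of the 8 old libraries on the first 2 principal components of log2 CPM, labelled by replicate number. Right, Pearson r between pairs of libraries across 10987 genes. On component 1 old non-reproducing replicate 1 sits with old reproducing replicates 1 to 3, and old reproducing replicate 4 lies between the groups. On component 2 old non-reproducing replicate 1 (-32.9) lies between replicates 3 (-25.4) and 4 (-40.6) of its own group.

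At the level of single genes, no gene passed an adjusted p of 0.05 in edgeR's quasi-likelihood test (0 of 10987, 0%). The smallest adjusted p was 0.150, shared by 15 genes. An unadjusted p under 0.05 was reached by 886 genes (8.06%), of which 562 (5.12%) were higher and 324 (2.95%) lower in non-reproducing than in reproducing old females. The split leaned further toward higher genes as p fell, to 266 higher and 40 lower under 0.01 and 62 higher and 4 lower under 0.001. The lean depended on the libraries and the scaling. The same threshold of 0.05 was passed by 599 higher and 605 lower genes with the 8 old libraries alone, 617 and 573 without old reproducing replicate 4, and 464 and 429 with upper-quartile factors. DESeq2 on the same libraries called 317 of 10037 genes with an adjusted p (3.16%), of which 282 (2.81%) were higher and 35 (0.349%) lower. In whole-body RNA, a change in the number of cells of a type and a change in RNA per cell cannot be told apart.

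The median absolute log2 change over all tested genes was 0.21, and the median log2 change was -0.0029. The 95% interval of the log2 change reached 0.69 to either side in the median gene, 0.28 at the 10th percentile of genes and 1.68 at the 90th. For 5806 genes (52.8%) the whole interval lay between -1 and 1. For those genes a difference of over 2-fold lies outside the interval. For the remaining genes the interval reached beyond -1 or 1, so a difference of that size was not bounded with 4 libraries a group. In some of them the whole interval lay beyond, as at 6.84 to 13.4 in the higher gene ranked first below. The intervals are not adjusted for the number of genes. A fitted change of at least 1 on the log2 scale was seen in 529 higher and 771 lower genes.

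Separation without a model gives a second view. In 465 genes (4.23%) the 4 old non-reproducing values all lay on one side of the 4 old reproducing values. That was so for 249 higher genes (2.27%) and 216 lower genes (1.97%). The median log2 change was 0.64 in the separated higher genes and -1.14 in the separated lower ones. Upper-quartile scaling, which shifted the median log2 change of all genes to -0.071, left 160 higher and 297 lower separated genes. Scaling by library totals left 152 higher and 335 lower. The balance between the directions therefore turned with the scaling. Of the 5411 genes averaging 10 CPM or more in the old libraries, 157 (2.90%) were separated and higher, and 49 (0.906%) separated and lower. A gene can reach that mean through the group where it is high, so the filter is not independent of the change.

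Old non-reproducing replicate 1 had the lowest value of its group in 134 of the 249 separated higher genes (53.8%), against 25.7% of all tested genes. It had the highest in 81 of the 216 separated lower genes (37.5%), against 20.99% of all tested genes. In old reproducing replicate 4 the picture was mixed. It had the lowest value of its group in 105 of the 216 lower genes (48.6%), against 35.2% of all tested genes, but the highest in only 50 of the 249 higher genes (20.1%), against 34.98% of all tested genes.

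The 10 higher genes described next are those with the smallest p among separated genes of at least 10 CPM, so their separation is how they were chosen. In the first 7 of them the same order held, with replicate 1 far below replicates 2 to 4 of its group but above every old reproducing library. Genes with at least 10-fold between replicate 1 and the next old non-reproducing library numbered 7 among the 157 separated higher genes. These are not the same 7 genes, since ranks 5 and 6 had a gap under 10-fold. The same count over all tested genes was not made.

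The gene ranked first, genemark-000032F-processed-gene-2.34, has a model of 3758 nucleotides. It had 2.40, 297, 873 and 714 CPM in old non-reproducing replicates 1 to 4, against 0.327, 0.317, 0.276 and 0.807 CPM in old reproducing replicates 1 to 4. Replicates 2 to 4 of the old non-reproducing group thus stood far above all old reproducing libraries, and replicate 1 only a little above the highest of them. The means were 472 ± 396 CPM in old non-reproducing and 0.432 ± 0.251 CPM in old reproducing females (SD, n = 4 each), and 0.503 ± 0.224 CPM in young females. The fitted log2 change was 10.11 (SE 1.49, edgeR adjusted p = 0.150). Without old non-reproducing replicate 1 the adjusted p was 4.03e-05 by edgeR, and over 22 alternatives it ranged from 3.07e-20 to 0.456.

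The gene ranked next, augustus_masked-000035F-processed-gene-1.44, has a model of 1221 nucleotides. It had 1.38, 311, 17.8 and 248 CPM in old non-reproducing replicates 1 to 4, against 0.0545, 0.0396, 0.0395 and 0.173 CPM in old reproducing replicates 1 to 4. The lowest old non-reproducing library held 34 reads of it, and the highest old reproducing library 3. Set against 3 reads in every old reproducing library, the old non-reproducing mean was at least 1008-fold higher, and the adjusted p was 0.150 by edgeR. Without old non-reproducing replicate 2 that bound was 622-fold. Young libraries also lay low, at 0.0400 ± 0.0514 CPM (SD, n = 4).

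The gene ranked 3, on contig 000018F with a model of 1646 nucleotides, reached the highest levels per length of these 10, with mean deposited RPKM values (reads scaled to model length and library total) of 763 in old non-reproducing and 0.650 in old reproducing females. It had 4.59, 892, 2713 and 1817 CPM in old non-reproducing replicates 1 to 4, against 0.382, 0.198, 0.513 and 2.88 CPM in old reproducing replicates 1 to 4 (log2 change 10.44, SE 1.73, edgeR adjusted p = 0.150). Old reproducing replicate 4 was thus closer to old non-reproducing replicate 1 than to its own group. The gene ranked 4, on contig 000036F with a model of 1476 nucleotides, had 2.07, 111, 1385 and 592 CPM in old non-reproducing replicates 1 to 4, against 0.273, 0.198, 0.355 and 0.634 CPM in old reproducing replicates 1 to 4 (log2 change 10.49, SE 1.83, edgeR adjusted p = 0.150). In young replicate 1 it stood at 2.72 CPM, above old non-reproducing replicate 1, and in the other young libraries at 0.210 to 0.503 CPM.

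The gene ranked 5 showed a smaller fold than those ranked 1 to 4, from a level that was already present. It lies on contig 000014F with a model of 1903 nucleotides. It had 19.8, 114, 219 and 199 CPM in old non-reproducing replicates 1 to 4, against 16.7, 14.4, 13.5 and 15.3 CPM in old reproducing replicates 1 to 4. The fitted difference was 3.20 on the log2 scale (SE 0.57, edgeR adjusted p = 0.150), and young libraries stood at 8.36 to 16.1 CPM. The genes ranked 6 and 7, on contigs 000015F and 000011F with models of 315 and 5036 nucleotides, had log2 changes of 4.69 (SE 0.86) and 6.22 (SE 1.19). Their old non-reproducing values ran from 1.18 to 37.8 CPM and from 5.12 to 600.3 CPM, and their old reproducing values from 0.545 to 0.980 CPM and from 1.15 to 4.50 CPM.

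In the genes ranked 8, 9 and 10 replicate 1 was not far from the other old non-reproducing libraries, though it was the lowest of them in ranks 9 and 10. The gene ranked 8, on contig 000026F with a model of 2152 nucleotides, had 62.3, 45.4, 55.6 and 46.2 CPM in old non-reproducing replicates 1 to 4, against 31.1, 35.9, 23.003 and 33.0 CPM in old reproducing replicates 1 to 4. Replicate 1 was the highest library in rank 8. The difference was 0.77 on the log2 scale (SE 0.15, 95% interval 0.44 to 1.10, edgeR adjusted p = 0.157), and young libraries lay lower still, at 20.2 to 23.7 CPM. The gene ranked 9, on contig 000010F with a model of 3983 nucleotides, had 22.4 to 31.5 CPM in old non-reproducing and 15.4 to 18.0 CPM in old reproducing libraries (log2 change 0.66, SE 0.13). The gene ranked 10, on contig 000059F with a model of 3529 nucleotides, had 36.8 to 68.8 CPM in old non-reproducing and 24.96 to 27.8 CPM in old reproducing libraries (log2 change 0.96, SE 0.19). DESeq2 called each of these 3 genes, with adjusted p-values of 0.000502, 0.000118 and 0.000415, and the highest adjusted p over the alternatives was 0.456, 0.463 and 0.456.

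By size of change, the first 4 higher genes were the same 4 that led by p. The gene ranked 5 by size, on contig 000018F with a model of 1095 nucleotides, had 0.975, 196, 33.3 and 72.6 CPM in old non-reproducing replicates 1 to 4 and 0.0789 to 0.288 CPM in old reproducing libraries (log2 change 8.99, SE 2.05, edgeR adjusted p = 0.166). Young replicate 4 held 6.86 CPM, more than old non-reproducing replicate 1.

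**Figure D2:**
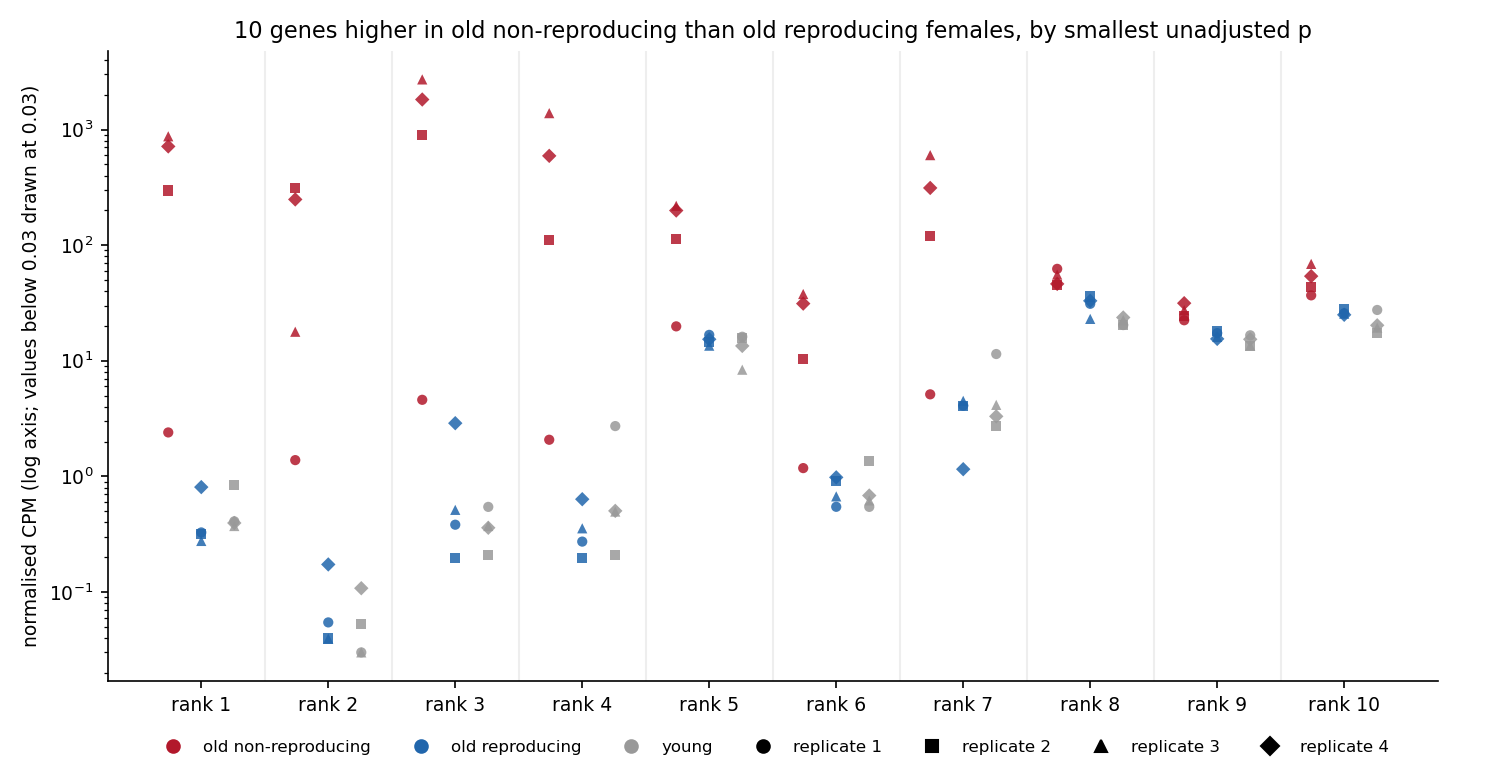
Normalised CPM on a log axis in every library for the 10 higher genes ranked by p. In ranks 1 to 7 old non-reproducing replicate 1 (circle) lies above the old reproducing libraries and below replicates 2 to 4 of its group, and in ranks 8 to 10 the 4 old non-reproducing libraries lie closer together, between 22.4 and 68.8 CPM.

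The fitted changes of the 10 lower genes, -4.07 to -0.49 on the log2 scale, were smaller than those that lead the higher genes. The gene ranked first, maker-000000F-augustus-gene-71.29, has a model of 1488 nucleotides. It had 7.35, 4.11, 2.18 and 3.57 CPM in old non-reproducing replicates 1 to 4, against 45.4, 39.6, 10.3 and 18.2 CPM in old reproducing replicates 1 to 4. All young libraries, at 1.90 to 6.71 CPM, lay within or just below the old non-reproducing range, so the old reproducing group was the one that stood out. The fitted difference was -2.71 on the log2 scale (SE 0.56, edgeR adjusted p = 0.157). Without old non-reproducing replicate 1 the adjusted p was 0.0205 by edgeR, and it ranged from 0.000182 to 0.456 over 22 alternatives.

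The gene ranked next, maker-000001F-snap-gene-5.112, has a model of 3156 nucleotides. It had 16.2, 17.5, 8.85 and 10.2 CPM in old non-reproducing replicates 1 to 4, against 38.7, 44.6, 21.3 and 49.2 CPM in old reproducing replicates 1 to 4 (log2 change -1.54, SE 0.35, edgeR adjusted p = 0.163). The gene ranked 3, with a model of 2412 nucleotides, lies in the same stretch of the same contig and had a like pattern, at 17.4, 24.6, 12.2 and 9.40 CPM in old non-reproducing replicates 1 to 4 and 51.2, 56.7, 25.9 and 62.3 CPM in old reproducing replicates 1 to 4. In both genes old reproducing replicate 3 was the lowest of its group and replicate 4 the highest. Whether reads are shared between these neighbours was not tested.

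The gene ranked 4, on contig 000038F with a model of 3137 nucleotides, rested in size on 1 library. It had 8.04, 29.7, 19.2 and 7.15 CPM in old non-reproducing replicates 1 to 4, against 875, 69.6, 70.3 and 59.5 CPM in old reproducing replicates 1 to 4. Its log2 change of -4.07 (SE 1.01) lay between -4.55 and -2.05 over the alternatives, the last without old reproducing replicate 1, and DESeq2 gave it no adjusted p. The gene ranked 5, on contig 000016F with a model of 4731 nucleotides, had 4.81 to 20.9 CPM in old non-reproducing and 23.6 to 203 CPM in old reproducing libraries, with old reproducing replicate 4 the lowest of its group. Young libraries, at 83.9 to 494 CPM, all lay above the old non-reproducing ones.

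The gene ranked 6, on contig 000004F with a model of 4504 nucleotides, had the highest mean RPKM of the 10 lower genes in old non-reproducing females. It had 1480, 995, 674 and 636 CPM in old non-reproducing replicates 1 to 4, against 2136, 2106, 1911 and 1597 CPM in old reproducing replicates 1 to 4. Mean deposited RPKM values were 212 in old non-reproducing and 451 in old reproducing females. The difference was -1.03 on the log2 scale (SE 0.27, 95% interval -1.62 to -0.45, edgeR adjusted p = 0.213), and young libraries, at 1323 to 1836 CPM, overlapped both old groups. The gene ranked 7, on contig 000011F with a model of 882 nucleotides, had 8.34 to 41.6 CPM in old non-reproducing and 45.5 to 768 CPM in old reproducing libraries, which barely separated. The gene ranked 9, also on contig 000011F with a model of 9052 nucleotides, had 12.8 to 16.7 CPM in old non-reproducing and 18.0 to 27.4 CPM in old reproducing libraries (log2 change -0.49, SE 0.15).

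**Figure D3:**
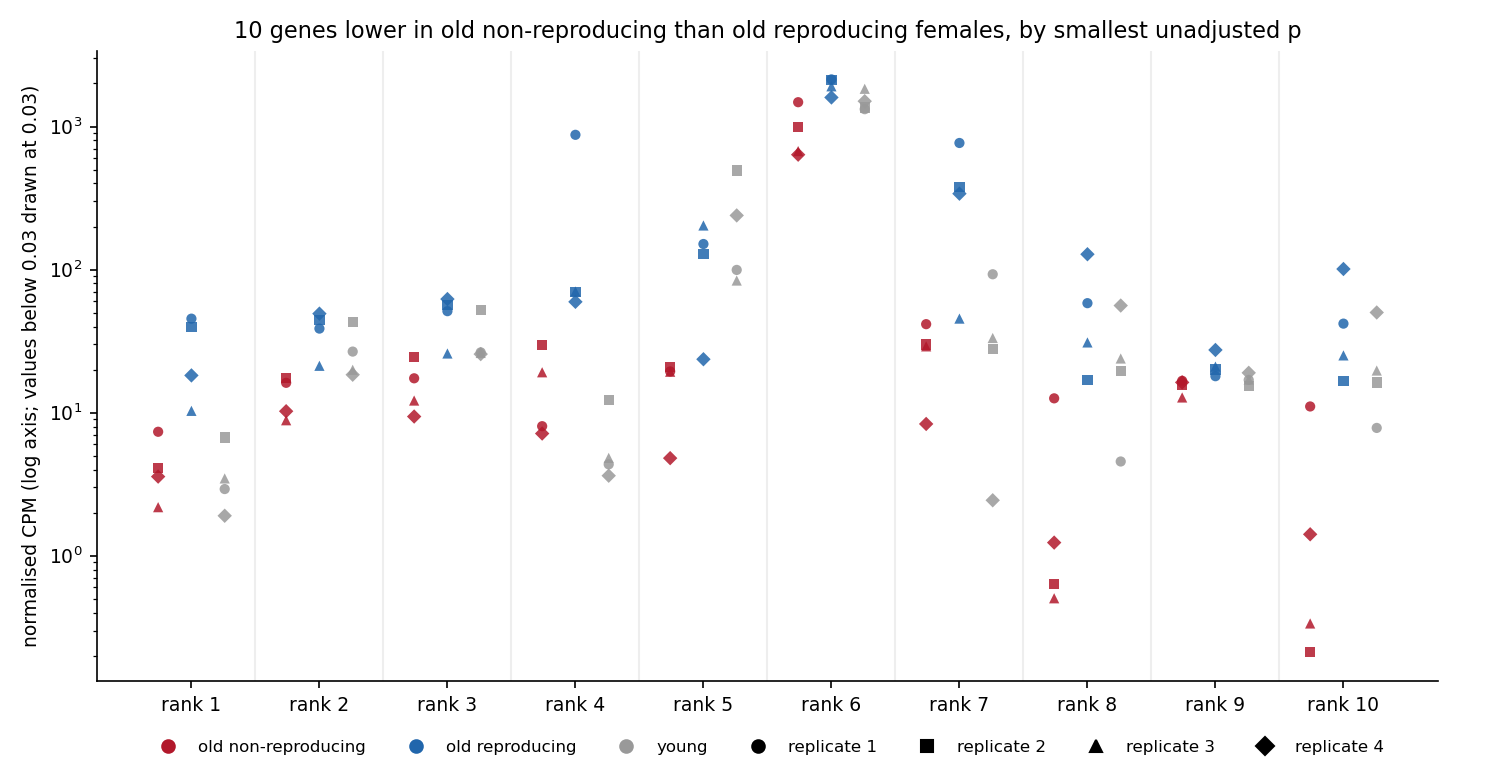
Normalised CPM on a log axis in every library for the 10 lower genes ranked by p. Old reproducing libraries lie above old non-reproducing ones throughout, young libraries side with the old non-reproducing ones in ranks 1 and 4, and in ranks 8 and 10 old non-reproducing replicate 1 lies well above replicates 2 to 4.

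The genes ranked 8 and 10 belong to a run of 4 lower genes in stretch 13 of contig 000028F, whose other members ranked 3 and 4 by size of change. They are 4 of the 20 tested genes of that stretch, against 1.97% of all tested genes that were separated and lower, and the median log2 change over the 20 genes was -0.28. Summed over the 4 genes, the level was 51.9, 1.79, 1.29 and 5.91 CPM in old non-reproducing replicates 1 to 4, against 221, 72.1, 121 and 494 CPM in old reproducing replicates 1 to 4. Young replicates 1 to 4 had 25.4, 77.4, 95.2 and 229 CPM, within the old reproducing range in all but replicate 1. The 4 log2 changes were -3.95, -3.91, -3.82 and -3.81, with adjusted p-values of 0.299 to 0.355 by edgeR, and without old non-reproducing replicate 1 they were -6.29 to -6.09 with adjusted p-values of 0.0108 to 0.0160 by edgeR. Over all alternatives their adjusted p-values lay between 0.00619 and 0.778. The models are 3471, 1500, 666 and 2596 nucleotides long. A gene of 14187 nucleotides in the same stretch went the other way by a small amount, with 163 to 169 CPM in old non-reproducing and 130 to 154 CPM in old reproducing libraries.

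Stretches were ranked by their number of separated genes after the values were seen. Separated genes fell in 335 of 1227 stretches with a tested gene, and 13 stretches held at least 3 in one direction. Besides stretch 13 of contig 000028F, another 2 held 4. In stretch 5 of contig 000036F, where 4 of 11 tested genes were separated and lower against 1.97% of all tested genes, their sum was 817, 44.0, 15.6 and 55.6 CPM in old non-reproducing replicates 1 to 4, against 3834, 1227, 2550 and 1456 CPM in old reproducing replicates 1 to 4. Young replicate 1 had 175 CPM and the other young libraries 1631 to 3039 CPM. As in contig 000028F, old non-reproducing replicate 1 was the one high library of its group, though still below every old reproducing library. These sums came almost wholly from 2 of the 4 genes. The others, with models of 578 and 524 nucleotides, lay near the floor. They had at most 0.244 and 0.0813 CPM in old non-reproducing libraries, against lowest old reproducing values of 0.461 and 0.173 CPM. The median log2 change over the 11 genes was -2.30, against -0.0029 over all tested genes.

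In stretch 42 of contig 000003F, 4 of 42 tested genes were separated and higher, against 2.27% of all tested genes, with log2 changes of 0.14 to 1.38. Another gene of that stretch was separated and lower, with a log2 change of -1.55 and no more than 0.763 CPM in any old library. Their sum was 129, 158, 146 and 143 CPM in old non-reproducing replicates 1 to 4, against 120, 121, 119 and 124 CPM in old reproducing replicates 1 to 4. Here replicate 1 was the lowest old non-reproducing library. Neighbouring models with near-parallel values may include copies between which the authors' counting split reads, and this was not tested.

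Separated genes were spread over the genome. The 31 contigs with at least 100 tested genes held 0 to 5.26% separated higher and 0.426 to 4.67% separated lower genes. Contig 000018F, home of 2 of the 5 higher genes ranked by size, had 16 of 363 genes (4.41%) separated and higher, against 2.27% of all tested genes, and 5 (1.38%) separated and lower. Contig 000011F went the other way, with 2 of 468 (0.427%) higher and 17 (3.63%) lower, against 1.97% of all tested genes. These contigs were picked after their counts were seen, and no test was made.

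The genes that took most reads did not separate the old groups with 1 exception. The most abundant gene in CPM, on contig 000016F with a model of 4653 nucleotides, had 25157, 38001, 22260 and 3839 CPM in old non-reproducing replicates 1 to 4, against 74291, 69845, 61320 and 38287 CPM in old reproducing replicates 1 to 4. The highest old non-reproducing library lay just under the lowest old reproducing one. Young libraries had 44102 to 110416 CPM. The fitted difference of -1.45 on the log2 scale (SE 0.59, edgeR adjusted p = 0.527) kept its sign in all 22 alternatives.

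A pair of abundant genes on contig 000004F, in stretches 31 and 30 with models of 8053 and 9447 nucleotides, split the old non-reproducing group along another line than replicate 1. The first had 959, 29372, 57400 and 984 CPM in old non-reproducing replicates 1 to 4, against 1967, 2276, 546 and 3931 CPM in old reproducing replicates 1 to 4. The other had 2915, 29054, 33659 and 3250 CPM in old non-reproducing replicates 1 to 4, against 6824, 7620, 2215 and 7905 CPM in old reproducing replicates 1 to 4. In both, old non-reproducing replicates 2 and 3 were high and replicates 1 and 4 lay among the old reproducing libraries. The gene in stretch 31 differed by 3.35 on the log2 scale (SE 1.18, edgeR adjusted p = 0.410), and over the alternatives its adjusted p ranged from 0.0305 with DESeq2 to 0.954. For the gene in stretch 30 edgeR gave 1.49 (SE 0.87, adjusted p = 0.724). The other 7 of the 10 most abundant genes had fitted log2 changes of -0.64 to 0.30 with overlapping groups.

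Higher and lower genes differed in abundance when tested genes were split by mean CPM into 5 classes of equal size. The mean is over the same 8 old libraries, so the class of a gene depends in part on its own change. The higher gene ranked 1 by p averaged 472 CPM in old non-reproducing but 0.432 CPM in old reproducing females. In the lowest class, with 0.158 to 1.17 CPM, 23 genes (1.05%) were separated and higher and 92 (4.19%) separated and lower, and the median log2 change was -0.32. In the highest class, from 69.1 CPM upward, 71 genes (3.23%) were separated and higher and 15 (0.682%) lower, and the median log2 change was 0.068. The excess of lower genes in the lowest class was seen under all 3 scalings, with 20 higher and 105 lower under upper-quartile factors and 17 higher and 132 lower under library totals. The excess of higher genes in the highest class was also seen under both, with 39 higher and 30 lower under upper-quartile factors and 47 higher and 21 lower under library totals. In the class below the highest, 63 higher and 18 lower genes under the main scaling became 34 higher and 46 lower under upper-quartile factors. In the middle class, 50 higher and 35 lower became 35 higher and 48 lower under upper-quartile factors and 31 higher and 43 lower under library totals.

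The summed level of the lowest class was 1299, 1316, 1501 and 1276 CPM in old non-reproducing replicates 1 to 4, against 1712, 1552, 2056 and 1267 CPM in old reproducing replicates 1 to 4. The groups overlapped through old reproducing replicate 4, which lay below all old non-reproducing libraries under this scaling. Under upper-quartile factors it stood at 1211 CPM, against 1174 to 1449 CPM in old non-reproducing libraries, and under library totals at 1373 CPM, against 1244 to 1423 CPM. Old non-reproducing replicate 1, which sided with the old reproducing libraries in the genes of large fold, lay within the range of its own group here. Without it the median log2 change of the lowest class was -0.33. Young libraries ranged from 1260 to 4359 CPM in the same genes.

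**Figure D4:**
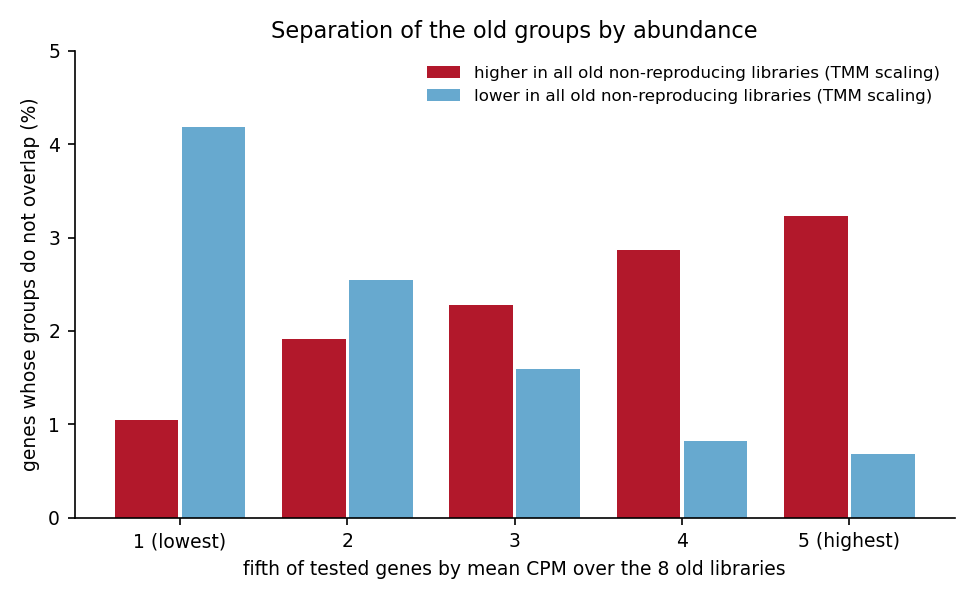
Percentage of tested genes whose old groups did not overlap, in 5 classes of mean CPM over the 8 old libraries, for genes higher and genes lower in old non-reproducing females. Lower genes fall with abundance, from 4.19% to 0.682%, and higher genes increase with it, from 1.05% to 3.23%, under the main scaling. In the class below the highest and in the middle class the order turns under upper-quartile factors, and in the middle class also under library totals.

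Model length and the program that predicted a model showed less contrast. Separated higher genes made up 1.64 to 2.73% and separated lower genes 1.32 to 2.50% of the 5 length classes, with medians of the log2 change between -0.032 and 0.033. By the first word of the ID, separated higher genes made up 2.03 to 2.43% and separated lower genes 1.37 to 3.16%, the last in the 885 models whose ID begins with augustus_masked.

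How well each library fitted its group was read from genes picked without it. For each old library, genes with an unadjusted p under 0.01 in the edgeR fit to the other 11 libraries were taken. The left-out library was then placed between the mean of the other old group (0) and the mean of the remaining libraries of its own group (1). The placement is a description over genes that are not independent.

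Old non-reproducing replicate 1 had a median position of 0.028 over 597 genes, and in 35 of them (5.86%) it lay nearer to its own group. Replicate 2 had a median of 0.708 over 312 genes, with 61.5% on its own side. Replicates 3 and 4 lay beyond their group, at 1.65 over 183 genes and 1.47 over 204 genes. These 3 libraries were placed with replicate 1 in their group mean.

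Old reproducing replicates 1, 2 and 3 lay at 1.02, 1.01 and 1.00, with 87.7 to 90.3% of 212 to 244 genes on their own side. By contrast replicate 4 of the old reproducing group lay at 0.533 over 370 genes, with 51.9% on its own side. Young libraries, which took no part in the choice other than through the estimate of the spread, lay with the old reproducing group in the median. On the scale where 0 is old reproducing, their median was -0.095 to -0.049 in the 4 placements that left out an old non-reproducing library. Higher genes outnumbered lower ones in these sets, by 438 to 159 without replicate 1 and by 190 to 14 without replicate 4. The medians thus describe mainly higher genes and do not place young libraries in the lower ones.

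**Figure D5:**
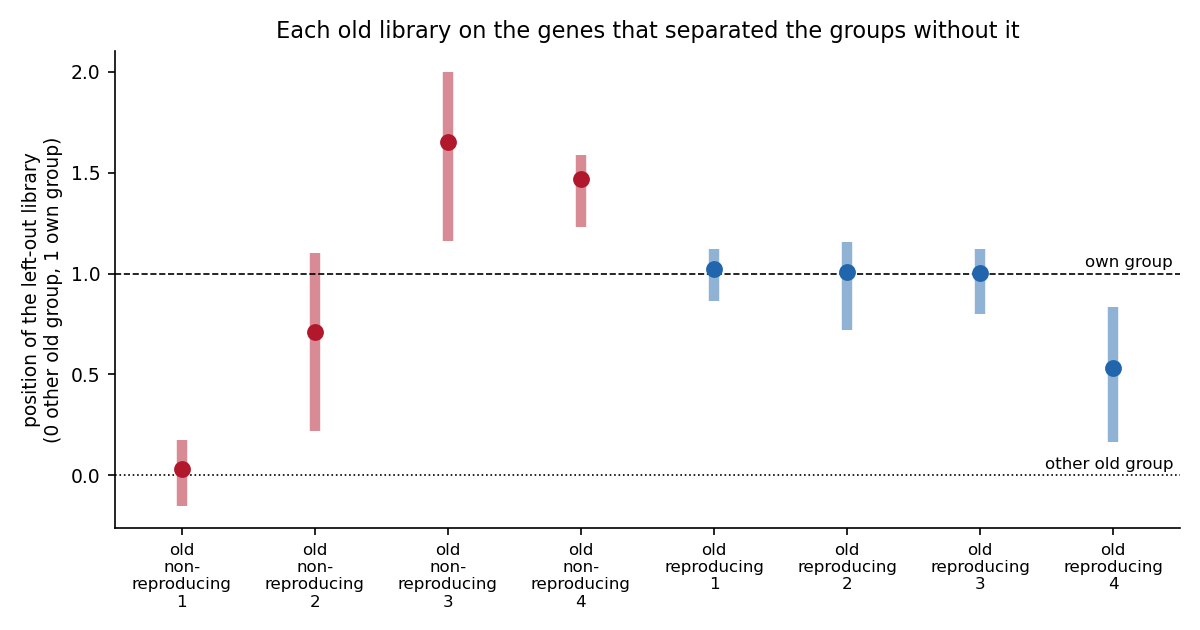
Position of each old library on genes with an unadjusted p under 0.01 in the fit without it, where 0 is the mean of the other old group and 1 the mean of the rest of its own group. Points are medians over genes and bars the middle 50% of genes; old non-reproducing replicate 1 sits at 0.028 and old reproducing replicate 4 at 0.533.

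Leaving out old non-reproducing replicate 1 was the one omission of a library that gave calls, 327 of 11242 genes (2.91%), of which 273 (2.43%) were higher and 54 (0.480%) lower. The new value here is that of the left-out library. In the 273 higher genes replicate 1 lay above every old reproducing library in 55 (20.1%), among them in 184 and below them all in 34, and it reached the lowest of the other old non-reproducing libraries in 6 (2.20%). In the 54 lower genes it lay below every old reproducing library in 13 (24.1%), among them in 29 and above them all in 12, and it reached the other old non-reproducing range in 1. Shares of this kind were not counted over all tested genes. A further reproducing library would also be the highest or lowest in part of the genes, so these shares alone show no agreement of replicate 1 with its group. The median position of replicate 1 in the higher genes was 0.012, where 0 is the old reproducing mean and 1 that of old non-reproducing replicates 2 to 4. Old reproducing replicate 4 stood at 0.11 and the other old reproducing libraries at -0.058 to -0.033.

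For some genes an unadjusted p under 0.05 did not hinge on any 1 old library. In the 12-library edgeR fit 562 higher and 324 lower genes passed that threshold. Of them, 323 and 81 kept it with the same sign in all 8 fits that each left out 1 old library. Of these, 96 higher and 52 lower genes were also separated. Among all genes at that threshold in the 12-library fit, 147 higher and 121 lower were separated. Over all tested genes the shares were 2.27% and 1.97%, but a small p in the same libraries favours separation. None of these genes passed the adjusted threshold with all libraries. The fits share most of their libraries, so these counts are a description and no separate support.

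Young females were read beside the separated genes as a level that took no part in choosing them. In the 249 separated higher genes the young mean lay beyond the old reproducing mean, away from old non-reproducing, in 129 (51.8%), between the old groups in 107 (43.0%) and beyond the old non-reproducing mean in 13 (5.22%). In the 216 separated lower genes the same shares were 157 (72.7%), 51 (23.6%) and 8 (3.70%). Over all tested genes they were 56.5%, 19.1% and 24.4%. In 100 of the 249 higher genes every old non-reproducing library also lay above every young library, and in 75 of the 216 lower genes every one lay below. The same counts over all tested genes were not made. These genes were chosen for old non-reproducing values at one end of the old libraries, which favours such separation from young libraries too.

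Whole libraries were compared between the old groups on 4 measures, each with an exact, two-sided permutation test. With 70 arrangements, 0.0286 is the smallest p possible. Thinned to 16015869 counts, libraries held reads of 15101 ± 233 gene models in old non-reproducing and 15351 ± 372 in old reproducing females (SD, n = 4 each; exact permutation p = 0.343, adjusted over 4 tests 0.571). The 10 most abundant genes took 15.3 ± 3.69% of the counts in old non-reproducing and 17.1 ± 1.72% in old reproducing libraries (SD, n = 4 each; exact permutation p = 0.429, adjusted 0.571). Models with an augustus_masked ID took 10.4 ± 0.591% and 10.5 ± 0.223% in these groups (SD, n = 4 each; exact permutation p = 0.943, adjusted 0.943).

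The count-weighted median model length was 3090, 3299, 3299 and 2983 nucleotides in old non-reproducing replicates 1 to 4, against 3435, 3464, 3462 and 3055 nucleotides in old reproducing replicates 1 to 4. Old reproducing replicate 4 again lay with the other group. The difference in means was -186 nucleotides (exact permutation p = 0.200, adjusted 0.571). Without old reproducing replicate 4 it was -286 nucleotides (exact permutation p = 0.0571, adjusted 0.229), and it ranged from -286 to -125 nucleotides over the omissions of 1 library. With 1 library fewer, 0.0571 is the smallest p possible, and without that library the groups did not overlap. Without the 10 most abundant genes the difference was -91.2 nucleotides. No measure passed the threshold. Even at the smallest p possible, 1 measure alone could not pass after adjustment over the 4 tests. A difference of the size of the spread between libraries was not detectable with 4 libraries a group.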

How the data were processed

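Per the file headers, 1 column per library holds the authors' raw read counts and 1 their RPKM values. STAR and SAMtools are named in the submitters' processing notes; versions, build, counting program and use of strand are not given in the sources used here. The labels' protocols name Qiagen RNeasy for extraction and NEBNext Ultra II Directional for the libraries. Model lengths (105 to 48741 nucleotides) were recovered from the counts and the deposited RPKM values, which they return to within 1.26e-06%. One model has no RPKM value.

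Counts were tested in R 4.3.3 with edgeR 4.0.16: filterByExpr, TMM factors, a robust quasi-likelihood fit with 1 mean per group over 12 libraries, and the two-sided contrast old non-reproducing minus old reproducing. A standard error is the absolute log2 change over the root of F. P-values were adjusted by Benjamini-Hochberg over 10987 genes. CPM are normalised by TMM library sizes. All 12 within-group pairs of old libraries differed beyond sampling noise (chi-square per degree of freedom at least 92.8). Bounds use 3 counts per library and cover counting error only. The script was tested on simulated data.

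Named genes are, among genes of at least 10 CPM whose old groups do not overlap, the 10 with the smallest p and the 5 with the largest change in each direction, plus the 10 most abundant genes. The groups, rules and tests were chosen with earlier results of these data known. Functional lists planned by product name were not run, because no ID could be paired with a name. Alternatives were DESeq2 1.42.0, limma-trend 3.58.1 on log2 CPM (prior count 2) and on log2(RPKM + 0.1) or log2(RPKM + 1), other scalings and filters, the 8 old libraries alone, a replicate block and each library left out. The bound without each old library was added after seeing the data.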

Additional observations from a re-analysis of the deposited data

Results flagged for a closer look

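Each group of 4 libraries was searched for 1 that stood apart, by Dixon's test at the 95% level, in which the distance to the closest library is divided by the range. In 14 of 82 groups of values a library was past the limit. For normally distributed values chance alone gives about 1 in 20, here 4.1. The CPM values were not put on a log scale, and most of the genes were chosen for separation in these same libraries. The 4.1 is therefore no measure of chance here. Many of the values share libraries and neighbouring genes, so they are not independent.

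Old reproducing replicate 4 was past the limit in 6. It was high in the higher genes ranked 1 (0.807 CPM against 0.276 to 0.327 CPM, ratio 0.904), 2 (0.173 against 0.0395 to 0.0545 CPM, ratio 0.887, within 3 counts) and 3 (2.88 against 0.198 to 0.513 CPM, ratio 0.883). It was low in the higher gene ranked 7 (1.15 against 4.08 to 4.50 CPM, ratio 0.874), in the gene ranked 10 by abundance (5896 against 10147 to 10483 CPM, ratio 0.927) and in the count-weighted median model length (3055 against 3435 to 3464 nucleotides, ratio 0.929).

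Old non-reproducing replicate 1 was high in all 4 lower genes of stretch 13 of contig 000028F. Its values were 12.6 CPM in the gene ranked 8 (others 0.504 to 1.24 CPM, ratio 0.940), 11.1 CPM in the gene ranked 10 (0.211 to 1.41 CPM, ratio 0.889), and 17.4 and 10.8 CPM in the other two (0.224 to 1.85 and 0.158 to 1.41 CPM, ratios 0.905 and 0.882). The sum of these 4 genes (51.9 against 1.29 to 5.91 CPM, ratio 0.909) and that of the 4 lower genes in stretch 5 of contig 000036F (817 against 15.6 to 55.6 CPM, ratio 0.95) were high as well. Old non-reproducing replicate 4 was low in the lower gene ranked 5 (4.81 against 19.3 to 20.9 CPM, ratio 0.903). Old reproducing replicate 1 was high in the lower gene ranked 4 (875 against 59.5 to 70.3 CPM, ratio 0.987).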

How the results depend on the processing

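No gene was called in the main fit. DESeq2 called 317 (282 higher, 35 lower), of which 221 are among the 327 called without old non-reproducing replicate 1. The replicate block called 1 higher gene, augustus_masked-000035F-processed-gene-1.44 (adjusted p 0.00961 by edgeR). Same-numbered old libraries had correlations of deviations of 0.043, -0.453, 0.042 and 0.122, and differently numbered ones -0.474 to 0.518. Whether libraries of the same number share a batch was not tested. The block changed no other call. Limma-trend, other scalings and filters, the 8 old libraries alone and adjusted thresholds of 0.1 and 0.01 gave 0. Over the 12 fits without 1 library the counts were 0 to 327 (0 to 273 higher, 0 to 54 lower). Genes at an unadjusted p under 0.05 were 326 higher and 132 lower in genes averaging 10 CPM or more over all 12 libraries, 494 lower with no filter and 605 lower in the 8 old libraries, where 599 were higher; without 1 library they were 436 to 753 higher and 163 to 573 lower. Higher genes were 63.4% of these in the main fit, 52.0% with upper-quartile factors and 52.9% on log2(RPKM + 0.1), where the median log2 change of all genes was -0.107. Separated higher genes numbered 160 with upper-quartile factors, 152 with library totals and 149 with that 10 CPM filter, which averages over 12 libraries and not the 8 old ones, and separated lower genes 335 with library totals and 54 with that filter; without 1 library they were 303 to 779 and 272 to 970, since fewer libraries separate more easily. Of 41 genes, 37 kept their sign under every alternative; of 896 single-gene values, 48 became called and 14 changed sign. Those that changed sign are 4 abundant genes with log2 changes near 0. The gene ranked 9 by abundance gave -0.267 with limma-trend on log2 CPM, -0.0321 with upper-quartile factors, -0.0985 with the replicate block and -0.360 at either RPKM pseudocount, and -0.159 to 0.392 without 1 library. Those ranked 3, 5 and 7 ranged from -0.316 to 0.219, -0.152 to 0.551 and -0.296 to 0.0932 without 1 library. The augustus_masked share differed by -0.216 to 0.227 percentage points without 1 library. With 4 libraries a group, the unadjusted 95% interval of the log2 change reached 0.69 to either side in the median gene. That width is not a limit of detection, since the main fit called no gene even at a log2 change of 10.88.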
